A study of Homo sapiens with 16 samples.

Results

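Epi-HOT-dP and Epi-HOT are cell lines derived from HEK, a line from human embryonic kidney, and they were compared for the places where the histone demethylase LSD1 (KDM1A) was found on chromatin. Epi-HOT-dP is written with a delta in the labels. The labels name the lines and the antibody (against Lsd1) only. From background knowledge of the study, Epi-HOT expresses the long non-coding RNA HOTAIR, Epi-HOT-dP expresses HOTAIR without the part that contacts the histone methyltransferase complex PRC2, Epi-CTR is the control line and Epi-HOT-dL expresses HOTAIR without the part that contacts LSD1. No agent or time point is given for any line, all 4 were grown in the same medium per the labels, and the labels do not say whether a line is a single clone. Each line had 2 replicate cultures, grown independently per the series' design text. The data are lists of islands, stretches in which the immunoprecipitated (IP) library held more reads than the Input of the same culture, with a false discovery rate (FDR) per island. Islands of the Epi-HOT-dP and Epi-HOT lists on the 22 autosomes, 17471 in all, were joined where they shared at least 1 bp. This gave 14863 regions, against 41637 when the lists of all 4 lines were joined. A region was called gained where both Epi-HOT-dP libraries and neither Epi-HOT library had an island, lost in the reverse case, and kept where all 4 had one. There were 121 gained (0.814% of the regions), 169 lost (1.14%) and 12 kept regions (0.0807%), 302 regions in total.

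LSD1 removes methyl groups from lysine 4 of histone H3 and works in repressor complexes with CoREST and histone deacetylases. PRC2 methylates lysine 27 of histone H3, a mark of silenced genes. HOTAIR is known as an RNA that can contact both, through different parts of the molecule, and that has been linked to the repression of HOX genes and of epithelial genes. Deleting the PRC2 part therefore asks whether LSD1 is found at the same places when the RNA can no longer contact PRC2. No gene annotation of the build used by the lists (hg19) was at hand, so regions are given by chromosome and position and not by gene, and no sequence is shown.

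In each line 1 library stood apart before any region was classed. On chromosome 19 lay 0.359% of the islands of Epi-HOT-dP replicate 1 and 0.394% of those of Epi-HOT replicate 2, whereas replicate 2 of Epi-HOT-dP had 6.56% there and replicate 1 of Epi-HOT 5.44%. The same libraries were rich in a stretch of chromosome 13 between 90 and 110 Mb, which held 321 of the 1114 islands of Epi-HOT-dP replicate 1 and 130 of the 1776 of Epi-HOT replicate 2, against 150 of 8077 and 46 of 6504 in their partners. A shorter stretch of chromosome 8, 2 Mb around position 130 Mb, held 37 and 25 of their islands against 17 and 11. Every gained region needs an island in Epi-HOT-dP replicate 1 and every lost region an island in Epi-HOT replicate 2, so all counts of both classes rest on these libraries. Counts are given below also without each library and without both stretches, whose bounds come from earlier results on these data.

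The lines overlapped in the number and covered length of their islands, but not in median island width. Epi-HOT-dP had 1114 and 8077 islands in replicates 1 and 2, and Epi-HOT had 6504 and 1776. The values of the lines overlapped, and the ratio of geometric means was 0.883 (exact two-sided permutation p = 1.0, where 6 regroupings of 2 against 2 allow no p below 0.3333). Islands covered 12.6 and 78.3 Mb in Epi-HOT-dP and 83.5 and 15.6 Mb in Epi-HOT, again overlapping (ratio 0.869, exact permutation p = 0.667). Median island width was 9.8 and 8.6 kb in Epi-HOT-dP and 7 and 8 kb in Epi-HOT. Here both Epi-HOT-dP libraries lay above both Epi-HOT libraries, with a ratio of 1.23, which reached the smallest p the design allows (exact permutation p = 0.3333). No reads are listed, so depth is unknown, and a place without an island can be one with fewer reads.

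Most places were called in 1 library alone. Of the 14863 regions, 13052 (87.8%) were called in a single library, 1698 in 2, 101 in 3 and 12 in all 4. Epi-HOT-dP replicate 2 alone held 5998 regions and Epi-HOT replicate 1 alone 4981, while Epi-HOT replicate 2 alone held 1328 and Epi-HOT-dP replicate 1 alone 745. Among regions held by exactly 2 libraries, the commonest pair came from different lines: Epi-HOT-dP replicate 2 and Epi-HOT replicate 1, the longest lists, shared 1199 regions with a median width of 24.4 kb. The lost regions (both Epi-HOT libraries, 169) and the gained regions (both Epi-HOT-dP libraries, 121) came next, followed by 108 regions shared by Epi-HOT-dP replicate 1 and Epi-HOT replicate 2.

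**Figure D1:**
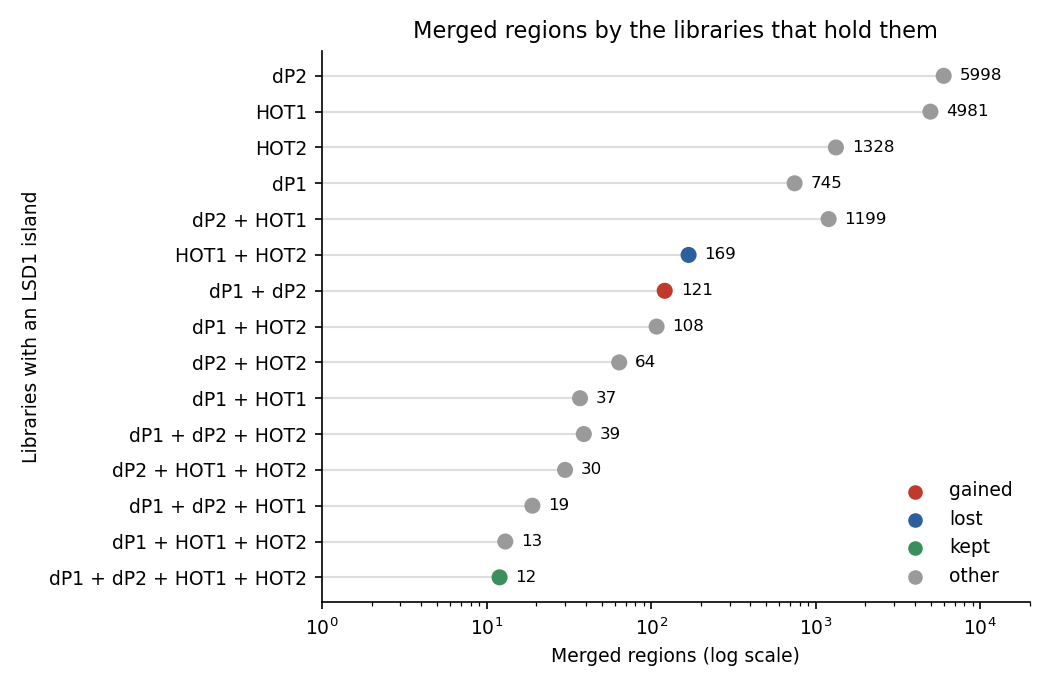
Number of merged regions (x axis, log scale) for each combination of libraries with an LSD1 island (y axis; dP1 and dP2 are the Epi-HOT-dP replicates, HOT1 and HOT2 the Epi-HOT replicates). Gained (121), lost (169) and kept (12) regions are few beside the 5998 and 4981 regions held by Epi-HOT-dP replicate 2 or Epi-HOT replicate 1 alone.

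Regions that both replicates of a line held were mostly without islands of the other line, but no more often so than the regions of any 1 library. Both Epi-HOT-dP libraries held 191 regions, and 121 of these (63.4%, exact binomial 95% interval 56.1 to 70.2) had no island in Epi-HOT. A further 39 were also called in replicate 2 of Epi-HOT and 19 in its replicate 1. Both Epi-HOT libraries held 224 regions, of which 169 (75.4%, 69.3 to 80.9) had none in Epi-HOT-dP, 30 were also called in Epi-HOT-dP replicate 2 and 13 in Epi-HOT-dP replicate 1. Over all regions of 1 library, whether or not its partner held them, the share without an island of the other line was 79.2% and 81.8% for Epi-HOT-dP replicates 1 and 2, and 79.7% and 84.9% for Epi-HOT replicates 1 and 2. Intervals cover counting error over regions only. By position alone, few places sat at the edge of the rule that islands share 1 bp. Of the regions held by Epi-HOT-dP replicate 1 alone, 5 lay within 1 kb of one held by replicate 2 alone, 2 of them within 200 bp, and in Epi-HOT 6 did so, 1 of them within 200 bp. No gained region and 1 lost region rested on 200 bp or less shared between the replicates.

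LSD1 islands in gained regions were near or below the middle of their own lists. Ordered by FDR from the smallest, their median place was 52.0% of the way down the list of Epi-HOT-dP replicate 1 and 64.6% down that of replicate 2. In replicate 1 their 126 islands had a median FDR of 1.59e-12, near the 1.29e-13 of the whole list, with a range of 1.84e-132 to 0.0449. In replicate 2 their 125 islands had a median FDR of 0.00801, above the 0.00282 of its whole list, with a range of 1.99e-09 to 0.0499. The FDRs of both lists lie on different levels and are not compared with each other. Within each list, 10 of these islands (7.94%) were among the first 10% by FDR in replicate 1 and 3 (2.40%) in replicate 2. At 58 of the 121 regions the worse of both FDRs was above 0.01, toward the limit of 0.05, and at 25 both were at most 0.001. Over the whole lists, 7.09% of islands in replicate 1 and 31.8% in replicate 2 had an FDR above 0.01. Taking the worse of both raises such a share by itself, so the 58 are no trait of gained regions.

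Islands in lost regions lay above the middle of the list in Epi-HOT replicate 1, at a median place of 36.3%, and below it in replicate 2, at 67.5%. Their 171 islands in Epi-HOT replicate 1 had a median FDR of 0.00152, below the 0.00465 of the whole list, and a range of 2.15e-19 to 0.0493. Their 169 islands in Epi-HOT replicate 2 had a median FDR of 0.00369, above the 0.000224 of the whole list, and a range of 6.33e-27 to 0.0471. In replicate 1, 26 of the islands (15.2%) were among the first 10% of the list, and in replicate 2 only 1 was (0.592%). At 85 of the 169 regions the worse FDR was above 0.01, and at 27 both were at most 0.001.

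**Figure D2:**
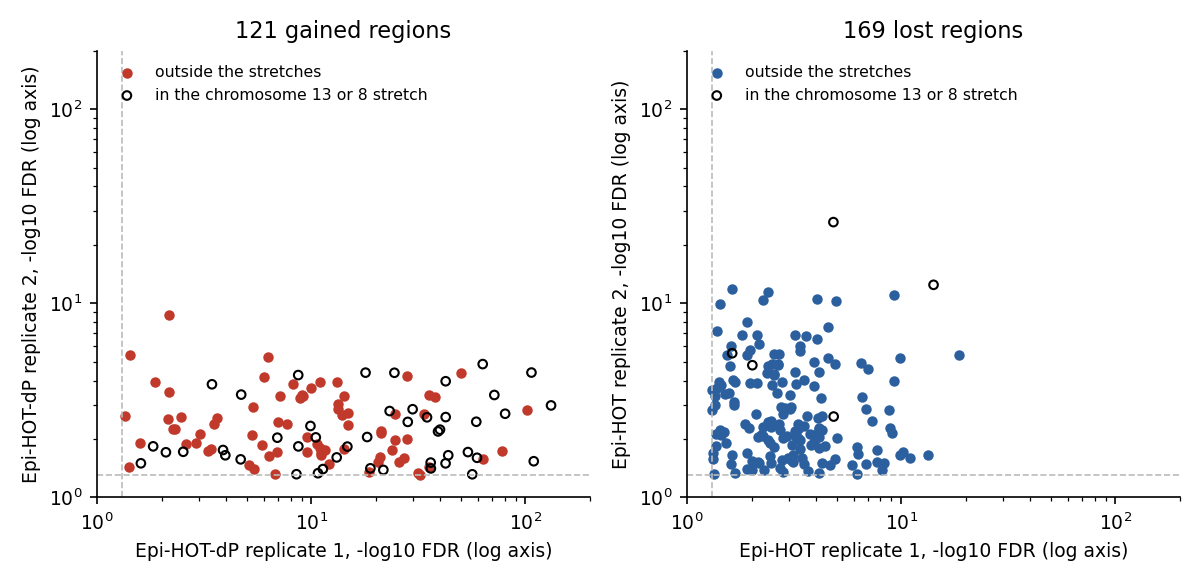
FDR of LSD1 islands in replicate 1 (x axis) and replicate 2 (y axis) of the line that holds the region, as -log10 on log axes, for 121 gained regions (left, Epi-HOT-dP) and 169 lost regions (right, Epi-HOT). Dashed lines mark the FDR limit of 0.05 and open circles the chromosome 13 and 8 stretches. Gained regions spread far along the replicate 1 axis and little along the replicate 2 axis, as do the whole lists, whose median FDRs are 1.29e-13 and 0.00282.

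Gained regions were wider than lost ones. The merged width of gained regions ran from 2.6 to 38 kb with a median of 13.4 kb, and that of lost regions from 2.4 to 37 kb with a median of 8.8 kb, against 8.4 kb over all regions. Merging over more than 1 library widens a region, so these medians are no independent measure. By library, the median island in gained regions was 9.9 kb in Epi-HOT-dP replicate 1 and 8.2 kb in replicate 2, close to the 9.8 and 8.6 kb of the lists. In lost regions it was 7.8 kb in Epi-HOT replicate 2, close to the list's 8 kb, but 3.8 kb in replicate 1 against 7 kb over its list. Only 31 of those 171 islands were wider than the median of their list. The narrow replicate 1 island and the broader replicate 2 island were often nested: at 107 of the 169 lost regions the shorter signal lay wholly within the longer one, against 48 of 121 gained regions. The bases called in both replicates came to a median of 5.8 kb per gained region (47.9% of its width) and 2.8 kb per lost region (30.8%). In megabases, gained regions spanned 1.80 and lost regions 1.75, yet the bases called in both replicates of a line and in neither library of the other were 1.12 Mb in Epi-HOT-dP and 0.608 Mb in Epi-HOT.

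**Figure D3:**
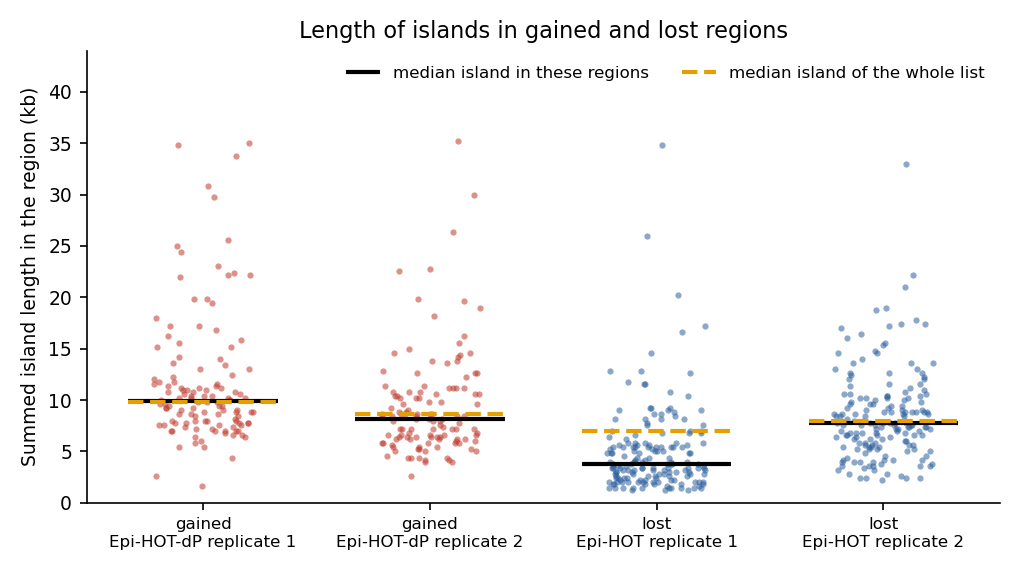
Summed length of LSD1 islands per region in kb (y axis) in each library that holds the region (x axis), 1 point per region, with the median island in these regions (black) and of the whole list (dashed). Islands of Epi-HOT replicate 1 in lost regions (median 3.8 kb) lie below the median of its list (7 kb), while those of the other 3 libraries lie close to theirs.

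Gained regions were concentrated on chromosome 13, as was the list of Epi-HOT-dP replicate 1, and lost regions were not. Chromosome 13 held 38.8% of gained regions (47 of 121) and 6.51% of lost regions (11 of 169), against 5.21% of all regions. By library, it held 32.0% of the islands of Epi-HOT-dP replicate 1, which every gained region needs, and 3.68% of those of replicate 2. For Epi-HOT replicates 1 and 2 the shares were 2.43% and 9.35%. Of the 47, 43 lay in the stretch from 90 to 110 Mb, which held 482 of all 14863 regions. Chromosome 8 came second with 12 gained regions (9.92%, against 4.40% of all regions), and then chromosome 6 with 9 (7.44%, against 4.99%). Of the 12 on chromosome 8, 4 lay between 120 and 130 Mb and 5 between 130 and 140 Mb, 3 of them in the stretch around 130 Mb. Chromosomes 9, 19, 21 and 22 had no gained region. Outside both stretches 75 gained and 164 lost regions were left. The 75 still include regions just beyond the bounds, such as 128516601 to 128526800 on chromosome 8 and 110213801 to 110221400 on chromosome 13. The lists were uneven in the chromosome 13 stretch. Between 100 and 110 Mb, which held 27 gained and 4 lost regions, the Epi-HOT-dP replicates had 169 and 82 islands and the Epi-HOT replicates 25 and 67. Between 90 and 100 Mb, with 16 gained regions and 1 lost, the numbers were 152, 68, 21 and 63. Their part in these counts was not tested.

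Lost regions were spread over all 22 autosomes, with 91 of the 118 stretches of 10 Mb that held any holding a single one. Chromosome 1 had 21 (12.4%, against 9.98% of all regions), chromosome 6 had 19 (11.2%, against 4.99%) and chromosome 3 had 17 (10.1%, against 5.93%). Chromosomes 16, 17 and 19, at 3.98%, 5.28% and 4.24% of all regions, had 1, 1 and 2 lost regions. Gained regions there numbered 3, 2 and 0, or 2.48%, 1.65% and 0% of the class, also below the shares of all regions. Chromosome 19 was nearly empty in the libraries that stood apart, and each class needs an island in one of these.

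**Figure D4:**
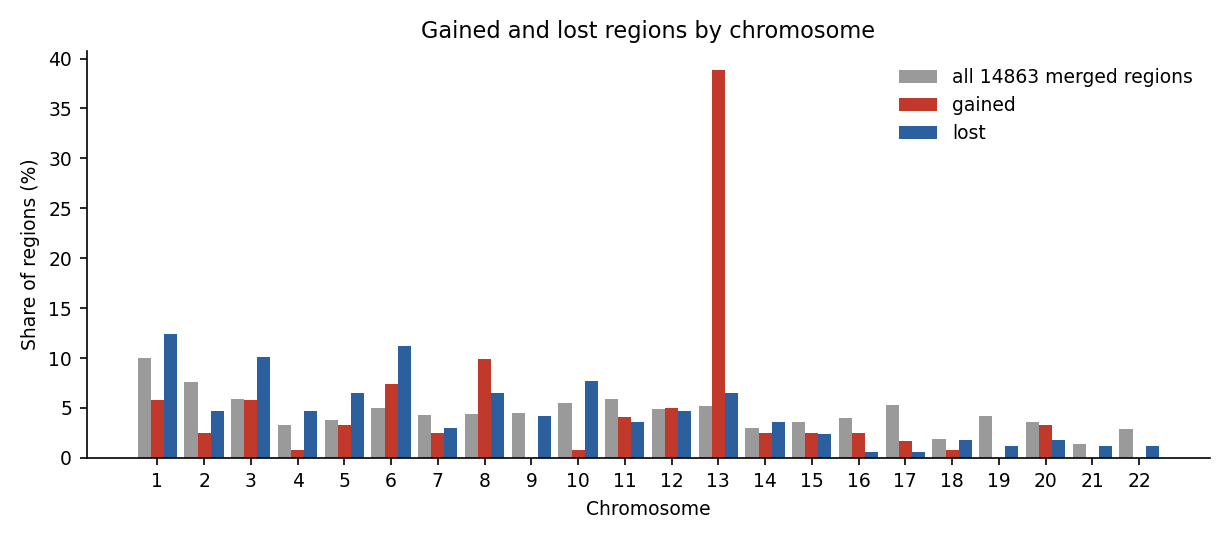
Share of regions in % (y axis) on each autosome (x axis) for all 14863 merged regions, the 121 gained and the 169 lost. Chromosome 13 holds 38.8% of gained regions against 5.21% of all regions, and chromosome 6 holds 11.2% of lost regions against 4.99%. Of the islands of Epi-HOT-dP replicate 1, which every gained region needs, 32.0% lie on chromosome 13 (not drawn).

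The densest group of lost regions was on chromosome 6, where 12 lay between 20 and 30 Mb. Apart from 1 at 20714601 to 20728200, they ran from 26061201 to 28196000, a part of the short arm known for the largest cluster of histone genes. Epi-HOT had 45 and 36 islands between 20 and 30 Mb, Epi-HOT-dP 13 and 25, Epi-CTR 137 and 104, and Epi-HOT-dL 93 and 57. In raw counts both Epi-HOT libraries thus lay above both Epi-HOT-dP libraries and below all 4 of the other lines. Relative to list length this order did not hold. Epi-HOT-dP replicate 1 had 13 of its 1114 islands there and Epi-HOT replicate 1 had 45 of 6504. Epi-HOT replicate 2 had 36 of 1776 and Epi-CTR replicate 1 had 137 of 20551. The stretch was singled out after the regions had been counted, and the numbers carry no test. Within it, the region from 26564001 to 26581400 had FDRs of 1.92e-08 and 0.0174 in Epi-HOT replicates 1 and 2, and that from 27353401 to 27360400 had 0.0291 and 3.88e-06. Both were held by both Epi-CTR libraries. Neighbouring regions from 27097801 to 27107800 and from 27110001 to 27118200 had FDRs of 0.0380 and 0.00586, and of 0.000524 and 0.00943. Of the 12, 6 were held by both Epi-CTR libraries, 4 by 1 and 2 by neither, while Epi-HOT-dL held 1 in both libraries, 3 in 1 and 8 in neither. The same 10 Mb held 2 gained regions.

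Epi-CTR and Epi-HOT-dL took no part in the definition of the classes, so their islands are a separate readout of these regions. Of the 169 lost regions, 77 (45.6%, 95% interval 37.9 to 53.4) were held by both Epi-CTR libraries, 57 by 1 of them and 35 (20.7%, 14.9 to 27.6) by neither. Of the 121 gained regions, both held 15 (12.4%, 7.11 to 19.6), 1 of them held 34 and neither held 72 (59.5%, 50.2 to 68.3). Over all 14863 regions the shares were 21.5% in both and 48.9% in neither, between the classes. Each Epi-CTR library showed the same order: replicate 1 held 68.0% of lost, 42.1% of all and 32.2% of gained regions, and replicate 2 held 56.8%, 30.5% and 20.7%. Epi-HOT-dL gave the order too, except that lost regions differed less from the rest. Both Epi-HOT-dL libraries held 36 lost regions (21.3%, 15.4 to 28.3) and 2 gained regions (1.65%, 0.201 to 5.84), against 17.4% of all. Neither held 65 lost (38.5%) and 88 gained regions (72.7%), against 49.5% of all.

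The shares were also set beside those of every region held by both replicates of the same line, whatever the other line showed. Lost and gained regions make up most of these sets, so the shares over whole sets are no independent comparison. Of the 224 regions that both Epi-HOT libraries held, lost regions included, both Epi-CTR libraries held 48.2% and both Epi-HOT-dL libraries 24.6%. For the 55 of them that were not lost, the values were 56.4% (42.3 to 69.7) and 34.5% (22.2 to 48.6). These intervals overlap those of lost regions, which does not show that the shares are alike. Shares held by neither Epi-CTR library were 16.4% of the 55 and 20.7% of lost regions. For Epi-HOT-dL they were 21.8% (11.8 to 35.0) and 38.5%. Of the 191 regions that both Epi-HOT-dP libraries held, both Epi-HOT-dL libraries held 2.09%, and 2.86% (0.348 to 9.94) of the 70 that were not gained, again overlapping. Held by neither Epi-HOT-dL library were 54.3% (41.9 to 66.3) of the 70 and 72.7% of gained regions. In Epi-CTR the values lay farther apart: both libraries held 41.4% (29.8 to 53.8) of those 70, against 12.4% of gained regions, and 20.0% (11.6 to 30.8) of the 75 gained regions outside the stretches, an interval that overlaps. The 70 and the 55 were also wider, with medians of 17.9 and 16.6 kb, and the part of width in these shares was not tested.

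Some of these shares changed when the stretches or 1 library were left out. Outside both stretches, 15 of 75 gained regions (20.0%, 11.6 to 30.8) met islands of both Epi-CTR libraries and 35 (46.7%) of neither, near the 22.1% and 48.0% of all regions outside. In the chromosome 13 stretch, 0 of 43 gained regions met both Epi-CTR libraries, which allows a share of up to 6.98%, and 35 met neither. For Epi-HOT-dL the low share stood outside the stretches, with 0 of 75 gained regions in both libraries, which allows a share of up to 4.00%, against 18.0% of all regions there. Lost regions hardly moved there, at 46.3% in both Epi-CTR libraries. Leaving out a library also changes the class, which then needs an island in only 1 library of that line. Without Epi-HOT replicate 2, lost regions numbered 5156 and 17.5% were in both Epi-CTR libraries. Without Epi-HOT replicate 1 they numbered 1499, with 24.2%. Without Epi-HOT-dP replicate 1, gained regions numbered 6131, of which 18.8% were in both Epi-CTR and 16.7% in both Epi-HOT-dL libraries. Without Epi-HOT-dP replicate 2 they numbered 877, with 6.16% and 0.684%.

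Counted over the 4 libraries of the other lines, 57 gained regions (47.1%) had no island in any and 0 had one in all 4, which allows a share of up to 2.48%. Among lost regions 19 (11.2%) had none and 25 (14.8%) had one in all 4, and over all regions the shares were 30.8% and 8.32%. Over all 191 regions of both Epi-HOT-dP libraries they were 38.7% and 1.05%, and over all 224 of both Epi-HOT libraries 10.3% and 17.4%. The 57 were thus called in Epi-HOT-dP alone, and 27 of them lay in the chromosome 13 stretch. For the 72 gained regions without an island in Epi-CTR, the nearest one lay at a median of 24.1 kb, within 100 kb for 65 and within 10 kb for 20. Gained regions had an Epi-HOT island at a median of 40 kb, and 25 had one within 10 kb. For lost regions the nearest Epi-HOT-dP island lay at a median of 106.8 kb, with 16 within 10 kb. No distances over all regions are given as a baseline, and the part of list length in these values was not tested.

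**Figure D5:**
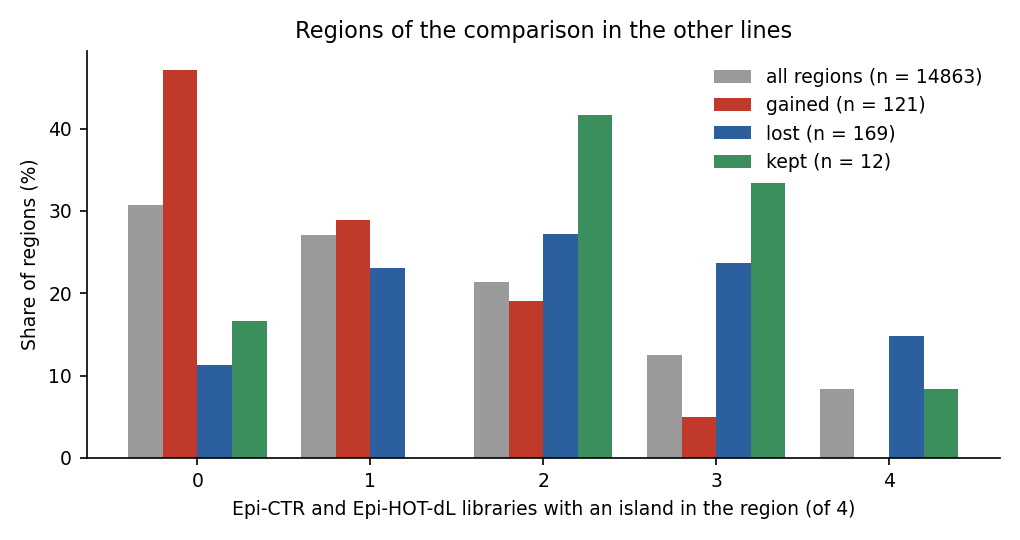
Share of regions in % (y axis) by the number of Epi-CTR and Epi-HOT-dL libraries, of 4, that had an LSD1 island in the region (x axis), for all merged regions and for gained, lost and kept regions. Gained regions peak at 0 libraries (47.1%), lost regions at 2 (27.2%), and no gained region reaches 4.

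Of the 10 gained regions with the best ranks in both replicates, 5 lay outside the stretches and 5 within them. Order here is by the worse of a region's FDR ranks in both Epi-HOT-dP lists. The first was 22 kb at chromosome 17 from 54747601 to 54769600. Epi-HOT-dP replicate 1 had an island of 10.4 kb with an FDR of 5.16e-07, replicate 2 had 2 islands that summed to 19.6 kb, the better with an FDR of 5.29e-06, and 8 kb were common to both. The third was 14.6 kb at chromosome 8 from 38742001 to 38756600, where replicate 2 had its smallest FDR in any gained region (1.99e-09) and replicate 1 had 0.00681. The fourth was 7.8 kb at chromosome 3 from 123547801 to 123555600, with 0.0383 and 3.65e-06. Unlike most gained regions, these 3 were held by both Epi-CTR libraries and by 1 Epi-HOT-dL library each, and Epi-HOT alone among the 4 lines had no island there.

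The second and 4 others of the first 10 lay in the stretches. At chromosome 13 from 105473201 to 105481000 the FDRs of replicates 1 and 2 were 6.79e-64 and 1.37e-05, from 107478401 to 107487600 they were 1.21e-18 and 4.04e-05, and from 91871601 to 91878800 they were 3.65e-25 and 4.10e-05. No library of another line held these 3. In the last, 7 of 7.2 kb were common to both replicates. The wider region from 109923401 to 109954600, 31.2 kb, came from an island of 30.8 kb in replicate 1 (2.06e-09) that met one of 4.4 kb in replicate 2 (5.38e-05), and Epi-CTR replicate 1 held it too. At chromosome 8 from 130243201 to 130258000 the FDRs were 1.99e-107 and 3.99e-05, with an island in Epi-CTR replicate 2.

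The first 10 were completed by chromosomes 4 and 1. At chromosome 4 from 10264601 to 10284400, an island of 19.8 kb in replicate 1 (5.81e-51) enclosed one of 9 kb in replicate 2 (4.38e-05), and no other line held it. At chromosome 1 from 142653801 to 142656400 both replicates called the same 2.6 kb, the narrowest gained region, with 1.04e-28 and 6.08e-05, and Epi-CTR replicate 1 and Epi-HOT-dL replicate 1 held it. The next 5 outside the stretches were split by the control line. Chromosome 5 from 73834801 to 73847200 (1.05e-11 and 0.000113) and from 149380201 to 149395800 (5.71e-09 and 0.000147, with 0.4 kb in common) were in both Epi-CTR libraries. Chromosome 20 from 59644601 to 59661800 (0.0136 and 0.000112) was in Epi-CTR replicate 1. Chromosome 8 from 128516601 to 128526800 (9.92e-07 and 6.78e-05) and chromosome 14 from 70599201 to 70610600 (6.22e-14 and 0.000116) were in no other line. The widest gained region, 38 kb at chromosome 13 from 95140801 to 95178800, had 29.8 kb in 2 islands of replicate 1 (6.02e-24) and an island of 26.4 kb in replicate 2 (0.00164), with 18.2 kb in common.

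Lost regions were ranked in the same way over both Epi-HOT lists. These are also unequal, with 6504 and 1776 islands, so a worse rank above 1776 can come only from replicate 1. The first was 9.6 kb at chromosome 13 from 104958801 to 104968400, within the stretch rich in gained regions. Epi-HOT replicate 1 had an island of 2.4 kb with an FDR of 6.90e-15 inside one of 9.6 kb with 3.52e-13 in replicate 2, and Epi-CTR replicate 1 held it as well. The second, at chromosome 1 from 238570001 to 238577800, had the same shape, 3.8 kb inside 7.8 kb, with 5.64e-10 and 8.04e-12, and was in both Epi-CTR libraries. The third, at chromosome 2 from 181841601 to 181849400, had 2.8 kb inside 7.8 kb, with 2.15e-19, the smallest FDR of replicate 1 in any lost region, and 3.75e-06. The fourth, at chromosome 9 from 108003001 to 108008400 (1.43e-10 and 6.01e-06), had an island in each library of Epi-CTR and Epi-HOT-dL, so Epi-HOT-dP alone lacked it.

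The rest of the first 10 lost regions were 3.2 to 5.4 kb wide, except for one of 11.4 kb on chromosome 18. On chromosome 13, the span 41236801 to 41242200 had FDRs of 3.00e-07 and 1.15e-05 in Epi-HOT replicates 1 and 2, and 30874601 to 30878400 had 1.12e-05 and 5.70e-11. Chromosome 2 had 106592201 to 106595600 (9.28e-08 and 2.50e-05). Chromosome 18 had 52441001 to 52445200 (1.18e-05 and 1.44e-05) and 18818201 to 18829600 (6.21e-10 and 0.000106). Chromosome 13 had a further one from 106322201 to 106325400. The last, 3.2 kb wide and again in the stretch, had the smallest FDR of Epi-HOT replicate 2 in any lost region (6.33e-27) beside 1.50e-05 in replicate 1. All 10 were held by at least 1 Epi-CTR library.

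The next 5 outside the stretches included the first lost region that no other line held, 13 kb at chromosome 20 from 36684201 to 36697200 (2.74e-05 and 2.93e-08). Just ahead of it came chromosome 12 from 106638801 to 106660400 (2.73e-05 and 5.90e-06), and after it chromosome 5 with 52081201 to 52089600 (2.76e-07 and 0.000519) and 95063601 to 95068200 (1.39e-07 and 0.00135), and chromosome 10 with 96941601 to 96945200 (5.73e-05 and 0.000546). Of the 19 lost regions without an island in another line, the second was on chromosome 14 from 74374201 to 74388400 (7.07e-05 and 0.00560), and the one after it was that of chromosome 6 from 20714601 to 20728200 (0.000119 and 1.03e-05). Among the 25 lost regions that all 4 libraries of the other lines held, those after chromosome 9 were 180991001 to 180995400 of chromosome 1 (5.23e-05 and 0.00590) and 77181201 to 77193800 of chromosome 11 (0.000119 and 0.0120). The widest lost region, 37 kb at chromosome 19 from 33683801 to 33720800, had an island of 34.8 kb in replicate 1 (8.07e-09) and 5.2 kb in replicate 2 (0.0410), with 3 kb in common, and both Epi-HOT-dL libraries but no Epi-CTR library held it.

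The 12 kept regions were those where LSD1 was called in both replicates with either form of HOTAIR. More regions had islands of both lines in fewer libraries, among them the 1199 of Epi-HOT-dP replicate 2 and Epi-HOT replicate 1. Kept regions were 8.8 to 46 kb wide with a median of 21.5 kb, lay on 8 chromosomes, and both Epi-CTR libraries held 7 of them. The first, by the worst of its ranks in the 4 lists, was chromosome 4 from 57937801 to 57949600. Its FDRs were 1.65e-19 and 0.000355 in Epi-HOT-dP replicates 1 and 2 and 5.14e-15 and 0.000262 in Epi-HOT replicates 1 and 2, over 5.6 to 7.6 kb of islands, and 1.6 kb were common to all 4. It was the only kept region that all libraries of Epi-CTR and Epi-HOT-dL held too. The region with the smallest single FDR was chromosome 3 from 75758001 to 75795000, at 8.77e-204 and 0.00139 in Epi-HOT-dP and 0.00579 and 4.66e-35 in Epi-HOT. Epi-HOT replicate 1 had 2 islands there that summed to 10.6 kb, all of it common to the 4 libraries, and the others had 36.2 to 36.6 kb.

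Within their own lists, islands in kept regions had a median place above the middle in 3 libraries, 37.9% in Epi-HOT-dP replicate 1 and 40.2% and 34.5% in Epi-HOT replicates 1 and 2, and below it in Epi-HOT-dP replicate 2, at 65.6%. Epi-HOT-dP replicate 2 had a median FDR of 0.00907 over the 12 and its smallest was 0.000204, and Epi-HOT replicate 1 had a median of 0.00263. The medians were 1.71e-19 in Epi-HOT-dP replicate 1 and 3.33e-05 in Epi-HOT replicate 2. At chromosome 17 from 45207801 to 45218000 the Epi-HOT-dP FDRs were 3.53e-37 and 0.00355 and the Epi-HOT FDRs 0.000658 and 2.63e-12. At chromosome 2 from 68140801 to 68156800 they were 2.28e-12 and 0.0142, and 7.10e-15 and 6.65e-05. At chromosome 1 from 209556401 to 209572200 they were 6.48e-46 and 0.00532, and 4.26e-06 and 0.0279. These 3 were in both Epi-CTR libraries.

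Chromosome 6 had kept regions from 17862201 to 17883600 and from 25170401 to 25179200, also in both Epi-CTR libraries, with FDRs of 4.39e-18 and 0.0128 in Epi-HOT-dP and 0.000784 and 7.38e-10 in Epi-HOT at the first and 1.76e-19 and 0.0250, and 0.00562 and 0.00169 at the second. At chromosome 15 from 63525201 to 63546800 they were 8.86e-12 and 0.0326, and 0.0364 and 7.59e-08. Chromosome 4 held kept regions at both ends. One ran from 40401 to 72000, where the first island of any list on that chromosome begins, and the other from 190610401 to 190656400, 284 kb before the end of the last. The second was the widest kept region, with an island of 46 kb in Epi-HOT-dP replicate 1 (2.70e-108) and 0.0369, 0.000344 and 0.000672 in Epi-HOT-dP replicate 2 and Epi-HOT replicates 1 and 2. No base of it was called in all 4 libraries. The same held for chromosome 13 from 106782401 to 106816200 and chromosome 1 from 144919401 to 144949200, where an island of 32.4 kb in Epi-HOT-dP replicate 1, or islands of 29.8 and 29.4 kb in Epi-HOT-dP replicate 1 and Epi-HOT replicate 2, joined shorter ones. No library of another line held either. The other 9 kept regions had at least 1 base called in all 4.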

How the data were processed

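LSD1 was mapped by ChIP-seq, and the 8 island lists, 1 per IP library against the Input of its own culture, were used as the authors deposited them; replicates were not pooled. Bowtie2 2.1.0 (an aligner), SICER 1.1 (a caller of broad islands) and the build hg19 are listed in the submitters' processing notes. Per the labels' list names, windows were 200 bp, gaps up to 1000 bp were allowed, the FDR limit was 0.05, and another filter was applied, for which no source used here gives the content. Each deposited island has 1 measurement, the FDR, which is the adjusted p-value that the authors' caller gave for IP against Input; it was used to order islands within a list and against fixed limits, and levels were not compared between lists. Depth is unknown.

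Cell line was taken from the labels and replicate from the sample titles. Islands on 22 autosomes were merged and classed as stated, with positions counted from 1. Regions named are all kept regions, the first 10 gained and lost by the worse of both FDR ranks, the next 5 outside the stretches, the widest, and the first 3 held by all or by no other libraries. The regions, lists and tests were chosen with earlier results of these data known. Library-level values were compared with exact permutation tests of log10 values; shares have exact binomial 95% intervals, and the limit for a count of 0 is 3 counts of the total. On simulated lists the counting recovered 200 of 200 planted regions of each class. Planted islands of a region always shared bases and lay apart from other regions, so this checks the counting code only. Alternatives are given in the closing section. Promoter sequences at hand belong to another build and were not used here. Computations ran in Python 3.11.15 with scipy 1.17.1, pandas 2.3.3 and numpy 2.4.6, and figures were drawn with matplotlib 3.10.9.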

Additional observations from a re-analysis of the deposited data

How the results depend on the processing

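Counts of regions depended on the lists. An FDR of at most 0.001 left 29 gained, 30 lost and 1 kept region, and 1e-05 left 2, 6 and 0. Lists of 1114 islands each left 6, 19 and 0. The 50% reciprocal overlap gave 86, 56 and 0. Without the stretches of chromosomes 13 and 8 there were 75 gained, 164 lost and 11 kept regions. Leaving out 1 library in turn gave 140 to 6131 gained, 179 to 5156 lost and 25 to 51 kept regions. Merging within 1 kb (124, 174 and 12) and all chromosomes (121, 169 and 12) changed little. Comparisons of single libraries were added after seeing the data: Epi-HOT-dP replicate 2 against Epi-HOT replicate 1 gave 6237 gained, 5216 lost and 1254 kept regions, and the remaining libraries gave 930, 1594 and 173. Gained regions outnumbered lost ones in 4 of the 15 alternatives: the 50% overlap, the first of these, and without either Epi-HOT-dP library. Leaving out a library loosens the rule most for its own line's class. The replicate blocks described below repeat the main counts, so this tally does not weigh the order of the classes. The cause of the differences between settings was not tested.

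The ratio of island numbers turned to 1.14 at an FDR of at most 0.001 and 1.20 at 1e-05, and ranged from 0.328 to 2.38 without 1 library. For covered length that range was 0.348 to 2.17, and for median width 1.15 to 1.31. No p lay below the smallest the design allows. Shares in Epi-CTR and Epi-HOT-dL left their 95% interval in 27 of 84 alternative values.

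A replicate block, in which a region must change the same way in both same-numbered pairs, gives 121 gained and 169 lost regions by construction, with 12 kept. With the block the ratio of island numbers was 0.171 in the first pair and 4.55 in the second (mean ratio 0.883, exact sign-flip permutation p = 1.0), that of covered length averaged 0.869 and that of median width 1.23. Same-numbered libraries deviated oppositely over 2408 bins of 1 Mb (r = -0.627), but not over merged regions (r = 0.139); crossing the numbers, added later, left 121, 169 and 12. The labels do not say that a number marks a shared day.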
